A study of Mus musculus with 6 samples.

Results

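Granule cells are the principal neurons of the dentate gyrus, and 10 genes that mark them were followed in the hippocampus of mice that carry a transgene for glutamate dehydrogenase 1 (*Glud1*). The 10 genes were *Prox1*, *Dsp*, *Tdo2*, *Lct*, *Npnt*, *Sema5a*, *Dock10*, *Rfx3*, *Stxbp6* and *Trpc6*. Every probeset that the array annotation gives to 1 of these genes and to no other gene was taken, which made 26 of the 45037 probesets that are not controls. Once the dimmest 31% of probesets, ranked by mean level over the 6 mice, were set aside, 23 of the 26 remained among 31076 kept probesets, and each of the 10 genes kept at least 1. *Lct* and *Trpc6* have 1 probeset each, and the other 8 genes have 2 to 5.

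The *Glud1* transgenic (Tg) group held 3 male mice 9 months of age, in which *Glud1* is driven by the neuron-specific enolase promoter so that the extra enzyme is made in neurons. The wild-type (wt) group held 3 male mice of the same age and the same C57BL/6 background, without the transgene. None of the 6 mice was treated, and hippocampal RNA of each mouse was hybridized to 1 array. Each p-value below therefore sets a difference between groups against the spread between these mice. The tests take part of that spread from other probesets.

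Granule cells receive the input of the entorhinal cortex through the perforant path and pass it through their mossy fibers to the pyramidal neurons of CA3. They are glutamatergic, they are packed in a dense layer, and new ones are added to that layer in the adult. Marker genes such as *Prox1*, a homeobox transcription factor needed to form and keep granule cell identity, are read in bulk tissue as a sign of these cells. In bulk hippocampus, a lower marker signal from fewer granule cells and one from less RNA per cell cannot be told apart.

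Signals are MAS5 values on a linear scale, log2 fold changes are Tg minus wt on log2(signal + 16), and adjusted p-values come from limma over all kept probesets. Median signals of the kept probesets lay between 309.6 and 318.9 on the Tg arrays and between 297.3 and 305.4 on the wt arrays. *Glud1* itself, at its brightest probeset, had 5115.6 to 5595.7 on the Tg arrays and 5647.3 to 6383.3 on the wt arrays, with no excess in Tg. Whether that probeset reads the transgene's transcript is not known here, so the value is no check of the genotype. The 18S RNA control probeset had 1695.3, 975.5 and 3312.8 on Tg 1, 2 and 3, against 13960.1, 10375.2 and 2286.5 on wt 1, 2 and 3. The *Actb* 3′ to 5′ ratio was 1.64 to 1.69 on the Tg arrays, against 1.86, 1.95 and 1.7 on wt 1, 2 and 3. In both measures wt 3 was the wt array nearest to the Tg arrays. The *Gapdh* 3′ to 5′ ratio was 0.781 to 0.8 on the Tg arrays, against 0.908, 0.811 and 0.752 on wt 1, 2 and 3, with wt 2 the nearest. The part of these measures in the marker values was not tested.

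The 250 bases before the annotated start (the first listed, for *Prox1*) of *Prox1*, *Dsp*, *Tdo2* and *Lct* are shown because these genes had the highest log2 fold changes at the brightest probeset of a gene. They come from RefSeq on GRCm38.p6, read 5′ to 3′ on the strand of the gene. Capitals mark CAGATG, an E-box of the form that NEUROD proteins bind, and TATAAA, the letters of a TATA box, each on either strand and at any position.
Prox1 (chr1:190170828-190171077, minus strand): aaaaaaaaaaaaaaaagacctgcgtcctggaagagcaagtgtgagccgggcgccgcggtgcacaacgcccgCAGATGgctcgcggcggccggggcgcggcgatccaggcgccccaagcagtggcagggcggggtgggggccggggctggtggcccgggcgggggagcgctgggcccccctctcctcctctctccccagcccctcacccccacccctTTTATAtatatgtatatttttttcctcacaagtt
Dsp (chr13:38151044-38151293, plus strand): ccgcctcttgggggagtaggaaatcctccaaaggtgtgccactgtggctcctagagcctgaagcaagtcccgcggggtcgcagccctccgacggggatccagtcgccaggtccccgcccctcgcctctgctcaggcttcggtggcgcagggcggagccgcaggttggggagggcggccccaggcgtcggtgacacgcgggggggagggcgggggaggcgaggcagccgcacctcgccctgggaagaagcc
Tdo2 (chr3:81975729-81975978, minus strand): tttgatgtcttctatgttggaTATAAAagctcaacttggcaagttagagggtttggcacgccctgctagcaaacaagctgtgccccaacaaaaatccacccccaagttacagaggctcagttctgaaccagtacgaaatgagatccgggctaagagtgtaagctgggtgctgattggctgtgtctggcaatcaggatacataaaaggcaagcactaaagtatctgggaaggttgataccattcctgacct
Lct (chr1:128328319-128328568, minus strand): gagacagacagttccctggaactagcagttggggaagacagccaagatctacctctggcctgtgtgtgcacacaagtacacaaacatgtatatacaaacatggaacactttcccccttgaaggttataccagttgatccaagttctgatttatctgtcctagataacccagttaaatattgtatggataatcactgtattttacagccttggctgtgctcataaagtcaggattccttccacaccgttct
These letters were chosen with the fold changes known. CAGATG lay in 3 of the 13 listed starts of the 10 genes, in *Prox1* 179 bases before the start and in both starts of *Dock10*, and in 14.4% of the 32851 starts of all genes. TATAAA lay in 2 of the 13, and in 12.4% of all starts. In *Prox1* it lay on the opposite strand, 34 bases before the start, and in *Tdo2* it lay 229 bases before the start. The bases shown differ in GC content, at 64.8% for *Prox1*, 72.4% for *Dsp*, 46.4% for *Tdo2* and 42.8% for *Lct*, against a median of 52.4% over all starts.

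The 23 kept marker probesets all had a higher mean in Tg than in wt, whereas 53.2% of all kept probesets did. Their log2 fold changes lay between 0.09 and 1.08 with a median of 0.61, against a median of 0.02 over all kept probesets. No marker probeset passed an adjusted p of 0.05 in limma, and no probeset of the array did (0.0% of 31076). At an unadjusted p of 0.05, 13 of the 23 were higher in Tg and 0 were lower, against 5.91% and 3.78% of all kept probesets, or 1837 higher and 1174 lower. With each array centred on its median this split turned to 1226 higher and 2162 lower, and 11 of the 23 were then higher. The same number, 13, also had a fold of at least 1.3, against 4.89% of all kept probesets. Cyber-T, a regularized test run on the same values, called 3 of the 23 higher at an adjusted p of 0.05, against 0.129% of all kept probesets. In 13 of the 23 every Tg array lay above every wt array, which held for 8.58% of all kept probesets, and in 0 did every Tg array lie below, against 6.67%. Median centering lowered this count of 13 to 9, and quantile normalization lowered it to 11, with no share of all kept probesets given for either. With 1 probeset per gene, the one of highest mean signal, 6 of the 10 genes were higher at an unadjusted p of 0.05 and 7 did not overlap, against 2.9% and 5.2% of 13854 genes. *Prox1*, *Dsp*, *Lct*, *Npnt*, *Sema5a*, *Dock10* and *Rfx3* are among the genes that the study selected on these same mice, so their direction is not independent evidence. *Tdo2*, *Stxbp6* and *Trpc6* are not among those genes, and their 5 kept probesets had log2 fold changes of 0.20 to 0.76. They were read on the same mice and chosen with earlier results known, so they are not independent evidence either.

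**Figure D1:**
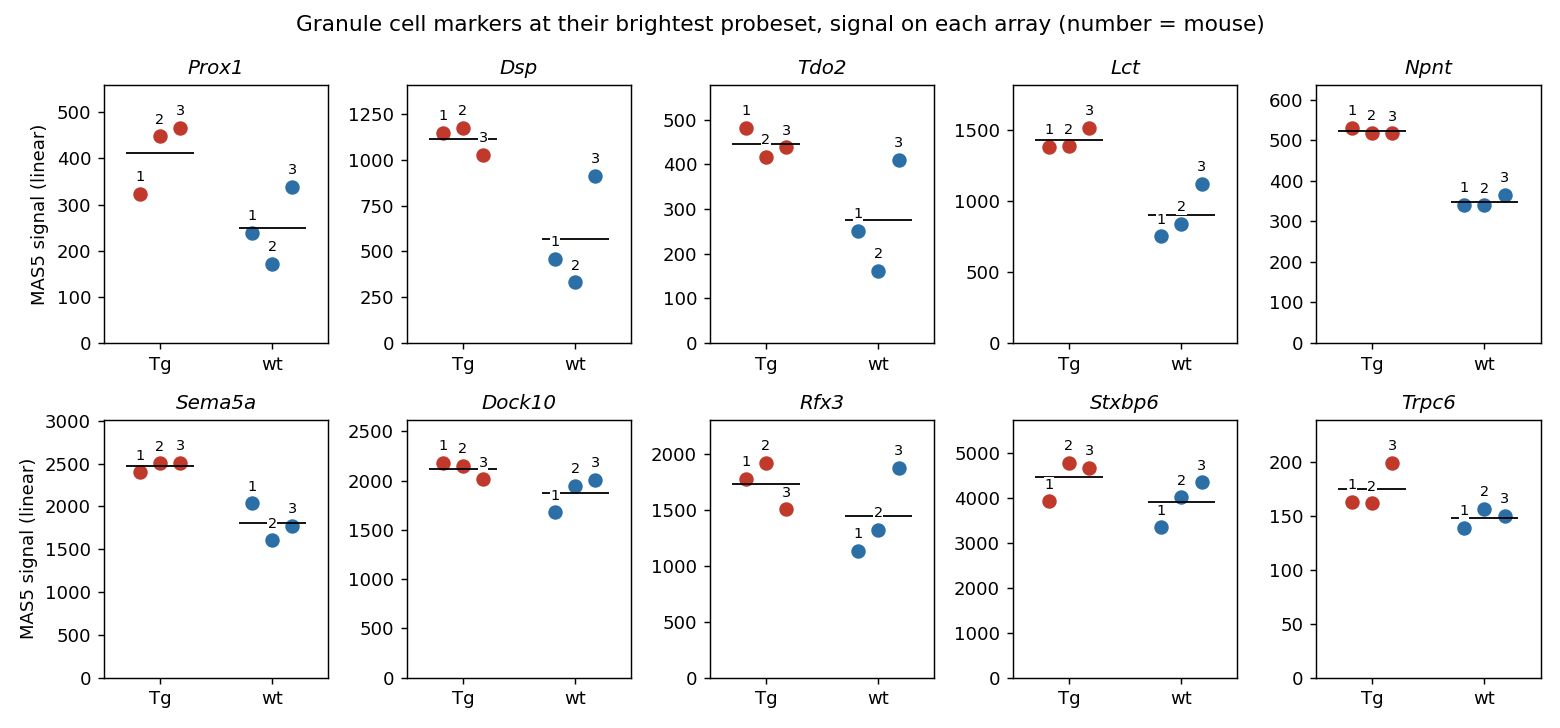
MAS5 signal (linear axis from 0) of the 10 granule cell markers at the brightest probeset of each, with 1 point per mouse numbered 1 to 3, Tg left of wt, and a line at each group mean. In 7 genes all Tg points lie above all wt points, and in *Dsp*, *Tdo2*, *Lct*, *Prox1* and *Rfx3* wt 3 stands well above wt 1 and wt 2.

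The transcription factors among the markers are *Prox1* and *Rfx3*. *Prox1* was measured by 3 probesets, and all had a higher mean in Tg. At 1421336_at it had 323.0, 447.9 and 466.3 in Tg 1, 2 and 3, against 239.3, 171.2 and 338.7 in wt 1, 2 and 3. Here wt 3 lay just above Tg 1, so the groups overlapped, and the log2 fold change was 0.72 (SE 0.245, limma adjusted p = 0.365). At 1437894_at, Tg had 393.4, 436.8 and 424.4, against 269.5, 204.2 and 256.0 in wt. At 1457432_at, Tg had 402.6, 405.4 and 317.0, against 230.2, 151.8 and 179.4 in wt. The groups did not overlap at either of these probesets, with log2 fold changes of 0.75 (SE 0.18) and 0.95 (SE 0.214) and a limma adjusted p of 0.227 for both. On all 3 probesets wt 2 was the lowest of the 6 arrays, while wt 3 was the highest wt array only at 1421336_at.

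*Rfx3*, a factor that controls genes of cilia, had 1780.6, 1926.6 and 1507.1 in Tg, against 1135.9, 1327.7 and 1878.0 in wt, at its bright probeset 1437375_at. The groups overlapped because wt 3 lay above Tg 1 and Tg 3, and the log2 fold change of 0.29 (SE 0.165, limma adjusted p = 0.61) turned to -0.12 with only wt 3 as the wt sample. At the dimmer 1425413_at, *Rfx3* averaged 102.2 ± 29.5 in Tg and 73.2 ± 16.3 in wt (SD, n = 3 each), with overlapping groups.

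The next members act at the cell surface or on the cytoskeleton. *Dsp* encodes desmoplakin, which ties desmosomes to intermediate filaments, and its 2 bright probesets had the highest log2 fold changes of the 23. At 1435493_at it had 1146.2, 1173.5 and 1027.3 in Tg, against 458.1, 330.3 and 912.0 in wt. No wt array reached the lowest Tg array, but wt 3 lay nearer to the Tg arrays than to wt 1 and wt 2, and the log2 fold change was 1.08 (SE 0.271, limma adjusted p = 0.235). At 1435494_s_at *Dsp* had 961.8, 1101.0 and 1040.4 in Tg, against 512.1, 337.1 and 672.7 in wt. That probeset separated the groups by 289.1 signal units and had a log2 fold change of 1.06 (SE 0.204, limma adjusted p = 0.192). The dim probeset 1427610_at had 103.1, 152.0 and 214.1 in Tg, against 100.7, 49.8 and 95.5 in wt, so its groups were parted by 2.4 units only. Cyber-T called the 2 bright *Dsp* probesets, at an adjusted p of 0.0494 and 0.0204.

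*Npnt* encodes nephronectin, an extracellular matrix protein that binds integrins. At 1452106_at it had 530.0, 517.4 and 516.4 in Tg, against 340.1, 338.8 and 364.9 in wt. The arrays of each group lay closer together here than for any other marker probeset on the log2 scale, and the groups were far apart, with a log2 fold change of 0.56 (SE 0.147, limma adjusted p = 0.245). At 1452107_s_at *Npnt* had 228.9, 316.1 and 239.5 in Tg, against 159.2, 144.2 and 169.9 in wt, again without overlap (log2 fold change 0.66). The dim probesets 1426561_a_at and 1426560_a_at had overlapping groups and log2 fold changes of 0.51 and 0.09. A 5th probeset, 1421429_a_at, had at most 7.3 on any array and was not kept.

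*Sema5a*, a transmembrane semaphorin that guides axons, was bright at 1437422_at, with 2397.0, 2503.9 and 2511.4 in Tg, against 2037.4, 1603.6 and 1776.9 in wt. The groups did not overlap, and here wt 1 was the highest wt array (log2 fold change 0.46, SE 0.105, limma adjusted p = 0.227). At 1434776_at *Sema5a* had 969.5, 906.5 and 846.2 in Tg, against 656.5, 749.2 and 651.8 in wt, without overlap (log2 fold change 0.40). The dim 1422167_at had 87.5, 190.3 and 141.5 in Tg, against 146.4, 34.0 and 74.0 in wt, and its groups overlapped. Its fold change of 0.73 on the log2 scale had a wide error (SE 0.447), at 1.16 without wt 1 and 0.31 without wt 2, and 1459109_at was not kept, at 10.1 to 43.4 over the 6 arrays.

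*Dock10*, a guanine nucleotide exchange factor, had 2182.4, 2148.0 and 2014.5 in Tg, against 1677.6, 1946.3 and 2010.7 in wt, at 1435343_at. The lowest Tg array exceeded the highest wt array by 3.8 units, and the log2 fold change was 0.17 (SE 0.101, limma adjusted p = 0.614) and 0.09 without wt 1. Its dim probeset 1439247_at had 159.8, 189.8 and 215.8 in Tg, against 208.0, 56.0 and 79.5 in wt. The 2 probesets thus placed wt 1 differently: it was the lowest array at the bright probeset and the 2nd highest at the dim one, where the log2 fold change was 0.81 (SE 0.387), 1.29 without wt 1 and 0.47 without wt 2.

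The enzymes are *Tdo2* and *Lct*. *Tdo2* encodes tryptophan dioxygenase, which opens the kynurenine pathway of tryptophan breakdown, and at 1419093_at it had 481.3, 416.0 and 438.0 in Tg, against 250.7, 161.8 and 410.3 in wt. All Tg arrays lay above wt, but Tg 2 exceeded wt 3 by only 5.7 units, and the log2 fold change was 0.76 (SE 0.267, limma adjusted p = 0.39) and 0.45 without wt 2. At 1449337_at *Tdo2* had 81.7, 132.7 and 157.5 in Tg, against 78.9, 49.8 and 96.8 in wt, with overlap. The probeset 1455770_at had a mean level of 5.92 on the log2 scale, just under the lowest kept level of 5.99. It had 51.2, 26.0 and 39.1 in Tg, against 34.4, 86.2 and 46.3 in wt, the only probeset of the 26 with a lower mean in Tg.

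*Lct* encodes lactase, the enzyme of the intestinal brush border that splits milk sugar, and it is measured by 1439479_at alone. It had 1385.6, 1386.9 and 1517.4 in Tg, against 753.6, 839.0 and 1124.2 in wt. The groups were 261.4 units apart, with wt 3 again the highest wt array, and the log2 fold change was 0.67 (SE 0.144, limma adjusted p = 0.212). Cyber-T called *Lct* at an adjusted p of 0.0494.

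The remaining members act in membrane traffic and ion flow. *Stxbp6* encodes amisyn, which binds syntaxin in SNARE complexes, and at 1435396_at it had 3934.4, 4794.8 and 4681.6 in Tg, against 3350.5, 4022.1 and 4353.9 in wt. Tg 1 lay below wt 2 and wt 3, and the log2 fold change was 0.20 (SE 0.112, limma adjusted p = 0.607) and 0.09 without wt 1. At 1425749_at *Stxbp6* had 497.4, 333.5 and 553.4 in Tg, against 212.3, 263.6 and 442.6 in wt, also with overlap (log2 fold change 0.60, and 0.38 without wt 1). *Trpc6*, a cation channel opened by diacylglycerol, had 163.6, 161.8 and 199.7 in Tg, against 138.9, 156.6 and 150.2 in wt. The groups of *Trpc6* were 5.2 units apart, and the log2 fold change of 0.21 was smaller than its SE of 0.24 (limma adjusted p = 0.81) and was 0.12 without Tg 3.

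**Figure D2:**
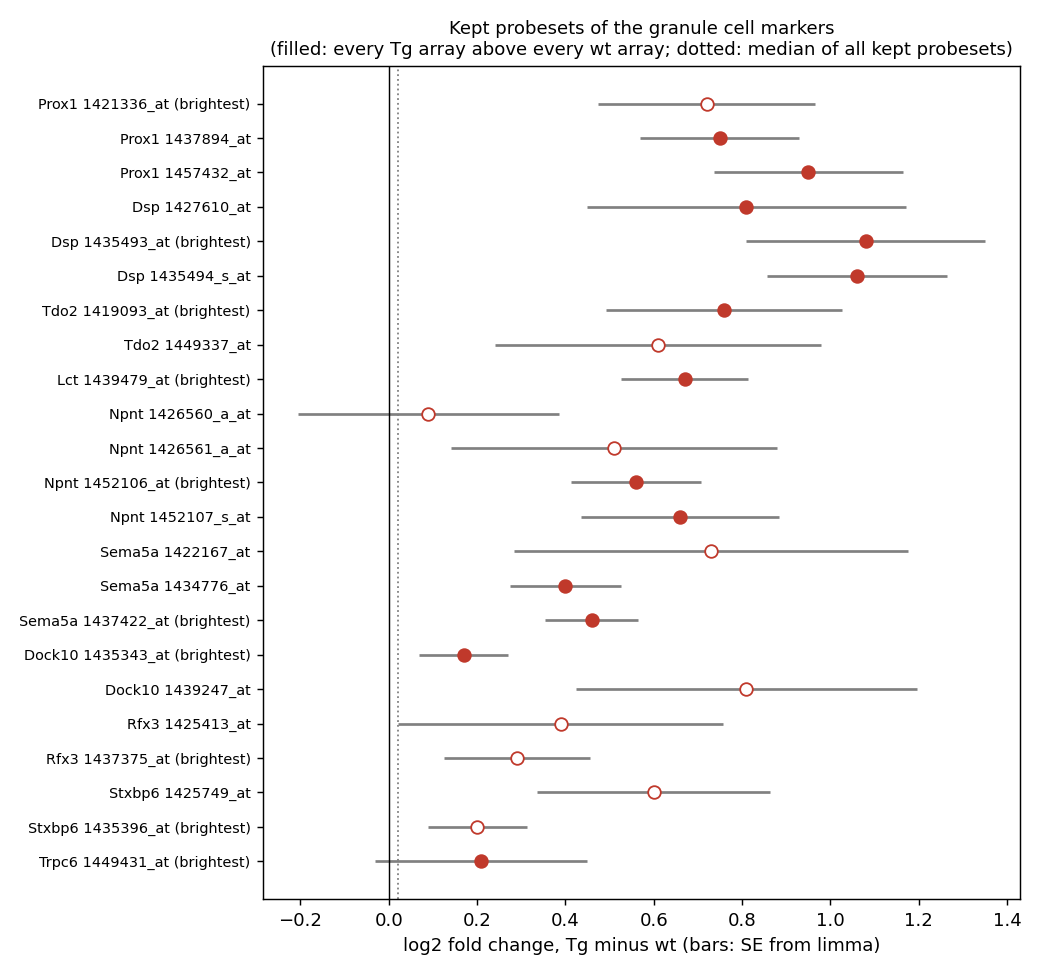
Log2 fold change, Tg minus wt, of the 23 kept probesets of the 10 markers (horizontal axis), with bars for the SE from limma, filled points where every Tg array lies above every wt array, and a dotted line at the median of all kept probesets, 0.02. All 23 points lie right of 0, the 2 bright *Dsp* probesets are farthest right at 1.08 and 1.06, and *Npnt* 1426560_a_at is nearest to 0 at 0.09.

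At the brightest probeset of each gene, wt 3 was the highest wt array for most markers. When the log2 level of each gene at its brightest probeset was centred on its mean over the 6 arrays and averaged over the 10 genes, Tg 1, 2 and 3 had 0.22, 0.28 and 0.27, against -0.36, -0.45 and 0.04 for wt 1, 2 and 3. The Tg arrays lay close together, wt 3 stood well above wt 1 and wt 2, and no wt array reached a Tg array. Without *Prox1*, *Dsp* and *Lct*, the other 7 genes had 0.18, 0.20 and 0.19 in Tg, against -0.28, -0.29 and 0.01 in wt, the same order of groups. Over all 23 probesets the averages were 0.18, 0.36 and 0.34 in Tg, against -0.20, -0.56 and -0.11 in wt, so that wt 2 was lowest in either count.

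Among the 23 probesets, wt 3 was the highest wt array in 12, against 30.1% of all kept probesets, and wt 1 was in 9, against 38.5%. At the brightest probeset of each gene, wt 3 was the highest wt array in 8 of 10. A share over the brightest probesets of all genes was not computed for this count. For *Prox1* the brightest probeset was a near tie, with mean signals of 331.1 at 1421336_at and 330.7 at 1437894_at. At 1437894_at wt 1 was the highest wt array. The array wt 2 was the lowest of all 6 in 15 of the 23, against 20.1% of all kept probesets. With the brightest probeset of each gene it was the lowest in 5 of 10. The markers' range over the Tg arrays had a median of 0.28, and their range over the wt arrays had a median of 0.57 on the log2 scale. Over all kept probesets the medians were 0.40 in Tg and 0.42 in wt. The spread among wt mice exceeded that among Tg mice in 78.3% of the marker probesets and in 53.0% of all kept probesets. Among the Tg arrays, Tg 2 was the highest Tg array in 11 of the 23, Tg 3 in 8 and Tg 1 in 4, against 34.2%, 35.6% and 30.1% of all kept probesets.

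Because wt 1 and wt 2 carried the high 18S signal, each marker was also set against wt 3 alone, a comparison added after the values were seen. The median log2 fold change of the 23 probesets was then 0.34, against 0.007 for all kept probesets, and 22 of the 23 were positive. Every Tg array exceeded wt 3 in 17 of the 23, against 27.1% of all kept probesets. The Tg mean exceeded wt 3 by 0.99 at *Prox1* 1457432_at, 0.61 at *Dsp* 1435494_s_at, 0.50 at *Npnt* 1452106_at and 0.47 at both bright *Sema5a* probesets, on the log2 scale. At other probesets of the same genes it was 0.26 at *Prox1* 1421336_at, 0.67 at *Prox1* 1437894_at and 0.28 at *Dsp* 1435493_at, and it was 0.34 at *Lct*. It exceeded wt 3 by 0.11 at *Tdo2* 1419093_at, 0.07 at *Dock10* 1435343_at and 0.03 at both *Stxbp6* probesets. At these probesets, the difference from wt 3 was close to the fold change over all wt arrays for *Npnt*, *Sema5a* and 2 of the 3 *Prox1* probesets, and well below it for *Prox1* 1421336_at, *Dsp*, *Lct*, *Tdo2* and *Stxbp6*.

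**Figure D3:**
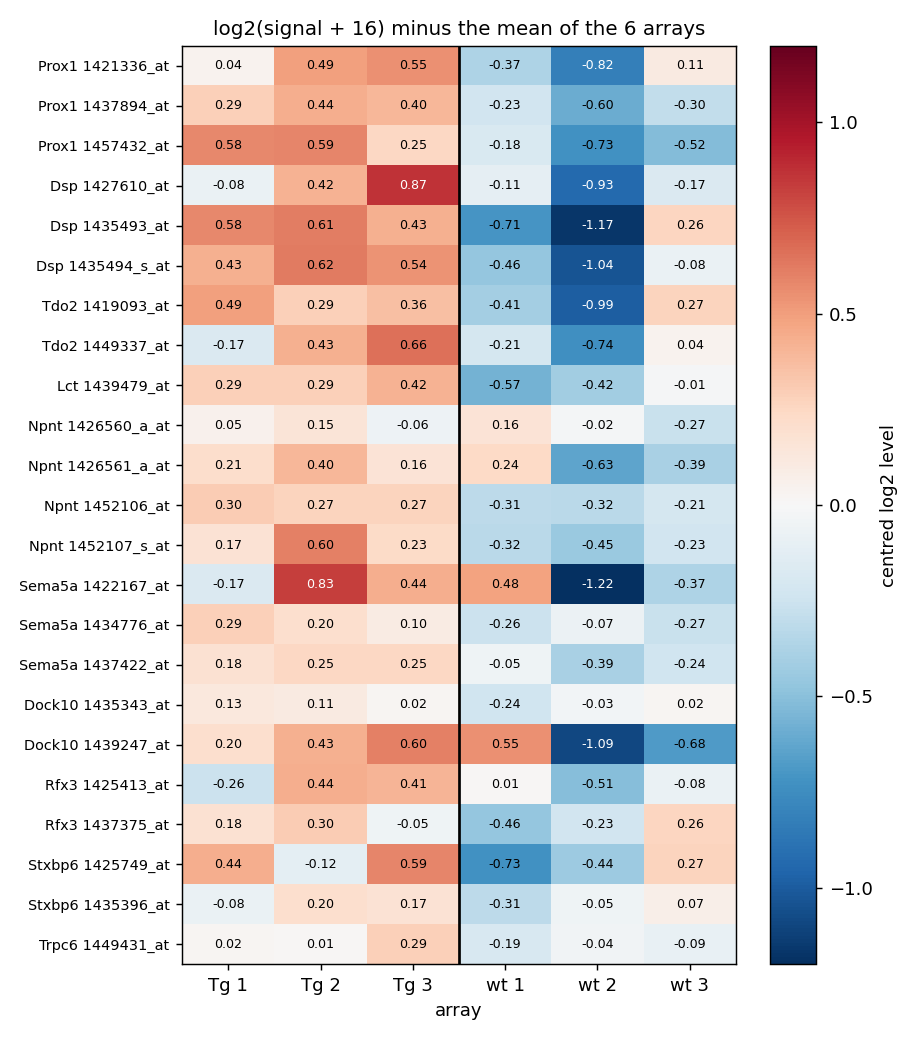
Log2(signal + 16) of each kept marker probeset minus its mean over the 6 arrays (color and printed value), with Tg arrays left of the line and wt arrays right of it. The wt 2 column is the lowest of all arrays in 15 of 23 probesets, and wt 3 lies nearer to the Tg arrays than wt 1 and wt 2 do at *Dsp* 1435493_at, *Tdo2* 1419093_at and *Lct*.

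Another 12 genes of granule cells were read on the same arrays. The study named *Bcl11b*, *Calb1* and *Pitpnm2* as up-regulated in these same mice. The list was also chosen with earlier results known, so its direction is not independent evidence. They had 32 kept probesets, of which 28 had a positive log2 fold change. At the brightest probeset, 10 of the 12 were higher in Tg and the median log2 fold change was 0.19, against 44.1% of genes positive and a median of -0.03 over the 13854 genes measured. At an unadjusted p of 0.05, 4 were higher and 1 was lower in Tg, against 2.9% and 4.97% of genes, and 0 passed an adjusted p of 0.05 in limma. The fold changes of this list were smaller than those of the 10 markers, whose median by the same rule was 0.51.

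*Calb1*, the calcium buffer calbindin, had 5362.8, 6170.8 and 5772.8 in Tg, against 5098.3, 4294.3 and 5688.5 in wt (log2 fold change 0.21). *Neurod1*, a transcription factor needed for granule cells to form, had 1105.7, 1094.3 and 1143.9 in Tg, against 771.8, 982.9 and 923.5 in wt (log2 fold change 0.32), without overlap. *Bcl11b*, a zinc finger transcription factor, averaged 4018.2 ± 208.2 in Tg and 3513.6 ± 104.6 in wt (SD, n = 3 each), also without overlap. The lowest signal of these 3 genes on any array was 771.8, so all 3 were measured in each hippocampus. *Lrrtm4*, a postsynaptic adhesion protein, had 462.4, 460.3 and 465.5 in Tg, against 280.7, 301.2 and 413.7 in wt, with wt 3 the highest wt array, as at *Dsp* and *Tdo2*.

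*Zbtb20*, *C1ql3*, *Slc29a4*, *Fam163b*, *Ablim3* and *C1ql2* had log2 fold changes of 0.35, 0.20, 0.27, 0.15, 0.10 and 0.05 at their brightest probeset. *Zbtb20* is a zinc finger repressor, and all 9 of its probesets were positive, between 0.16 and 0.69. Of the secreted synaptic organizers *C1ql2* and *C1ql3*, *C1ql2* averaged 1556.2 ± 158.8 in Tg and 1535.4 ± 423.4 in wt (SD, n = 3 each). *C1ql3* averaged 4721.0 ± 159.9 in Tg and 4160.2 ± 737.9 in wt (SD, n = 3 each). The 2 genes with a lower mean in Tg were *Pitpnm2*, at -0.12, and *Gsg1l*, a subunit of AMPA receptors, at -0.88. The paper counts *Pitpnm2* among its up-regulated genes, the opposite direction. Only 1 of the 2 *Pitpnm2* probesets was kept here, and it may not be the one the paper used. *Gsg1l* had 140.8, 255.4 and 231.0 in Tg, against 440.0, 416.6 and 313.6 in wt, and all 3 Tg values lay below the wt values. The 2nd probesets of *Fam163b* and *Lrrtm4* also had lower means in Tg, at log2 fold changes of -1.26 and -0.24.

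Markers of neighboring regions and cells were read on the same arrays. Of 8 genes of CA2 and CA3 pyramidal neurons 6 were positive, with a median of 0.27. In 3 of these 8 every Tg array lay above every wt array, against 5.2% of genes. At an unadjusted p of 0.05 in limma, 2 of them were higher and 0 lower, against 2.9% and 4.97% of genes. Of 5 genes of CA1 pyramidal neurons 3 were positive, with a median of 0.01. All 8 genes of the subiculum and retrohippocampal cortex had a lower mean in Tg, with a median of -0.91, and 6 of them were lower at an unadjusted p of 0.05, against 4.97% of genes. Their summed signal was 6723.3 to 8078.0 in Tg and 9324.7 to 10663.1 in wt. All 7 genes of GABAergic interneurons also had a lower mean in Tg, with summed signals of 16559.7 to 18992.2 in Tg and 19974.2 to 24137.9 in wt. In 4 of the 8 subicular and retrohippocampal genes and in 3 of the 7 interneuron genes the Tg arrays all lay below the wt arrays, against 8.81% of genes. The mean centred level of wt 3 was 0.46 in the first list and 0.13 in the other, above every Tg array in both, and the part of these lists in the granule cell marker values was not tested.

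Immature granule cells and progenitors were measured by 5 of 8 genes, of which 2 were positive, and mossy cells by 6, of which 2 were positive. The median log2 fold changes of these 2 lists were -0.14 and -0.23. *Tubb3* of the immature list had a log2 fold change of -0.31, and *Calb2*, which is in both lists and in that of the thalamus, had -0.34. Genes of the choroid plexus summed to 4619.7 on Tg 3, 42084.3 on Tg 1 and 66766.4 on Tg 2, against 48107.6 to 54493.3 in wt, and the granule cell markers of Tg 3 lay beside those of Tg 1 and Tg 2. Of 5 genes of the thalamus 4 were positive, with a median of 0.02. Of the lists of astrocytes, oligodendrocytes, microglia, endothelial cells, ependymal cells and meningeal fibroblasts, none had more positive than negative genes. Summed signals of the meningeal list were 2603.9 to 3677.7 in Tg and 2915.5 to 6345.8 in wt. No gene in any list passed an adjusted p of 0.05 in limma.

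**Figure D4:**
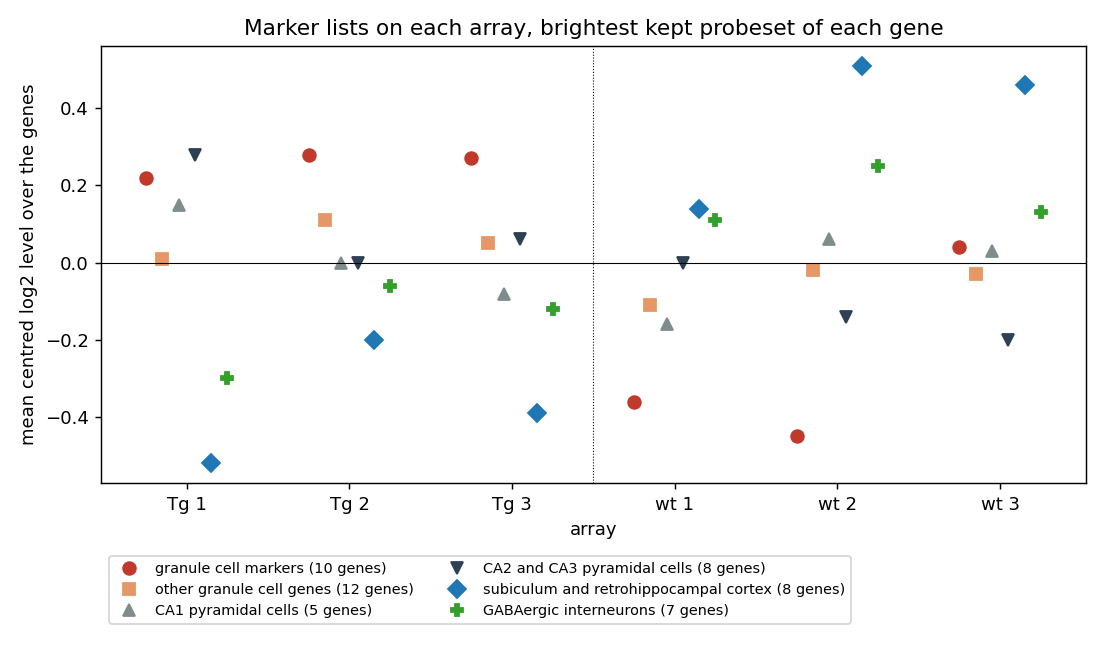
Mean centred log2 level of 6 marker lists on each array (vertical axis, 0 is the mean of the 6 arrays), at the brightest kept probeset of each gene, with Tg arrays left of the dotted line and wt arrays right of it. The 10 granule cell markers lie at 0.22 to 0.28 in Tg and at -0.36, -0.45 and 0.04 in wt 1, 2 and 3, while the genes of the subiculum and retrohippocampal cortex lie below 0 in Tg and above 0 in wt.

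The likeness of each marker to the others was measured as Pearson's r, over the 6 arrays, between its level and the mean level of the other 9. It was 0.968 for *Dsp*, 0.963 for *Lct*, 0.915 for *Prox1*, 0.911 for *Tdo2* and 0.89 for *Npnt*. It was 0.774 for *Sema5a*, 0.754 for *Rfx3*, 0.745 for *Dock10*, 0.692 for *Stxbp6* and 0.603 for *Trpc6*. The arrays fall into the 2 genotypes, so these values describe the difference between groups as well as the order within them.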

How the data were processed

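Hippocampal RNA of 3 Tg and 3 wt mice was hybridized to 1 Affymetrix mouse genome array per mouse. The deposited values are intensities, linear signals that the authors computed with MAS5 (version not given in the sources used here), 1 per probeset. The images were not used here. Of 45101 probesets, 64 controls were set aside. Genes were named from the platform annotation, in which 34945 probesets have 1 gene, 932 have several and 9160 have none.

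The value 16 was added, log2 was taken, and the 31% of probesets with the lowest mean level were left out. Tg was compared with wt in limma 3.58.1 under R 4.3.3 (lmFit, eBayes with a trend, no covariate), with Benjamini-Hochberg adjustment over 31076 probesets. Lists were compared at the probeset of highest mean signal of each gene. Probesets ending in _s_at can read more than 1 transcript. The script was checked on simulated data.

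The text names all 10 markers at every probeset, all measured genes of the list of other granule cell genes, at most the 2 brightest genes of each other list, the transgene's gene, and the 8 genes of mean signal at least 200 most like the markers' mean profile. The markers and lists were chosen with earlier results of these data known. Alternatives were added constants of 1 and 64, quantile normalization, centering on the array median, no filter, the brightest 50%, limma without trend or with array weights, Cyber-T (window 101, confidence 10), a replicate block, 1 value per gene, a fold of 1.3 with an unadjusted p of 0.05, and leaving out arrays. With 3 arrays a group the number of mice limits the precision.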

Additional observations from a re-analysis of the deposited data

How the results depend on the processing

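No probeset of the array passed an adjusted p of 0.05 in limma. Cyber-T called 65, the replicate block 1, the fold of 1.3 with an unadjusted p of 0.05 took 2148, and leaving out 1 array in turn gave 0 to 6. Unadjusted calls, 1837 higher and 1174 lower, ranged with 1 array left out over 1128 (without Tg 3) to 2211 higher and 886 to 1381 lower. Centering each array on its median gave 1226 higher and 2162 lower, and leaving out wt 1 and wt 2, an alternative chosen after seeing the data, gave 545 lower. Among the 23 marker probesets, Cyber-T called 3 where limma called 0. Without wt 1 and wt 2, those at an unadjusted p of 0.05 numbered 8 in place of 13, and the median log2 fold change was 0.34 in place of 0.61, with 1 wt sample whose spread was assumed to be that of the Tg group. With 1 array left out, 9 to 15 passed the unadjusted p, against the 1128 to 2211 higher of all kept probesets, and 0 the adjusted p. Of the 23, 22 to 23 were positive, and the median was 0.46 (without wt 2) to 0.71 (without wt 3). Groups did not overlap in 13 to 17, but fewer arrays make that easier, and the share of all kept probesets is not given. Of 385 single values, 380 kept direction and side of the threshold and 3 passed it, all under Cyber-T. Cyber-T, the block, limma without trend and the filter settings leave each log2 fold change as it is, so direction was fixed there. The direction turned at *Npnt* 1426560_a_at, to -0.02 without wt 3, and at *Rfx3* 1437375_at, to -0.12 without wt 1 and wt 2, within ranges over left-out arrays of -0.02 to 0.32 and -0.12 to 0.49, and the cause was not tested. Leaving out 1 array also moved by over 1.5 times *Rfx3* 1437375_at (0.13 without wt 1, 0.49 without wt 3), *Rfx3* 1425413_at (0.62 without Tg 1, 0.23 without wt 2), *Tdo2* 1449337_at (0.40 without wt 2) and *Npnt* 1426561_a_at (0.33 without wt 2), beside the probesets given with their values in the results. With quantile normalization the median was 0.55, against -0.005 for all kept probesets, and with centering it was 0.55, against -0.047. Marker probesets without overlap then numbered 11 under quantile normalization and 9 under centering, in place of 13. The shares of all kept probesets without overlap under these settings are not given. Without the filter 25 of 26 were positive.

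The replicate numbers are shared by both groups, and deviations of equal numbers correlated at -0.016, 0.0078 and 0.033. These small values give no sign that the numbers pair the mice, but they cannot exclude it. The paper's abstract describes the wt mice as littermates. In this balanced design the replicate block cannot change a log2 fold change, so the markers' median of 0.61 was fixed. With the block, 14 of 23 were higher at an unadjusted p of 0.05 in limma, against 1849 of the 31076 kept probesets. Low signal limits what can be read, as at *Sema5a*, whose SE was 0.447 at the dim 1422167_at and 0.105 at the bright 1437422_at.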

Other observations

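The 8 genes outside the markers with the level most like their mean profile over the 6 arrays, among 10046 genes of mean signal at least 200, were *Yipf6*, *Mmp16*, *Hinfp*, *Srrm1*, *Lrrtm4*, *Sec22a*, *AY036118* and *Cebpd*, with Pearson's r of 0.973 to 0.986. At r of at least 0.9 there were 88 genes, 0.876% of those compared. Such r values also describe the difference between the 2 genotypes, and the 8 genes were picked for the highest r. *AY036118* had the highest log2 fold change of the 8, 1.64, with 2960.6, 2683.5 and 2458.4 in Tg 1, 2 and 3, against 747.7, 424.4 and 1937.4 in wt 1, 2 and 3. Its wt 3 value stood far above those of wt 1 and wt 2. *Hinfp*, a transcription factor of histone genes, had 370.1, 350.5 and 390.2 in Tg, against 192.6, 151.1 and 281.3 in wt (log2 fold change 0.82). *Mmp16*, a membrane-bound metalloproteinase, averaged 549.9 in Tg and 426.5 in wt. *Sec22a*, of the family of vesicle trafficking proteins, averaged 354.1 in Tg and 329.3 in wt, a log2 fold change of 0.10, so a like order of arrays came with very different sizes of change. None of the 8 passed an adjusted p of 0.05 in limma.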
